A study of Mus musculus with 12 samples.

Results

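Retinoic acid synthesis and response was followed here through 9 genes of the mouse: the retinal dehydrogenases *Aldh1a1*, *Aldh1a2* and *Aldh1a3*, the binding proteins *Crabp1* and *Crabp2*, the degrading enzyme *Cyp26b1* and the nuclear receptors *Rara*, *Rarb* and *Rarg*. They were taken by symbol, through their Ensembl identifiers, as 9 of the 35727 genes in the deposited table. In all, 15506 genes had enough counts to be tested, and 8 of the 9 were among them. *Crabp2* was the member that did not reach the count filter, with 41 counts over all libraries.

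Vitamin A reaches cells as retinol, which dehydrogenases and reductases convert to retinal and back. The ALDH1A enzymes then oxidise retinal to retinoic acid in a step that is not reversed. CRABP proteins carry retinoic acid inside the cell, CYP26 enzymes degrade it, and the retinoic acid receptors bind it in the nucleus, paired with a retinoid X receptor on DNA. In the developing heart the epicardium is a known site of retinoic acid synthesis through *Aldh1a2*.

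The cells were cardiac fibroblasts from pooled neonatal mouse hearts, grown in EGM2 medium. The study's methods name C57BL/6J mice and *Tcf21*-CreERT2 mice bred with *Rosa26*-tdTomato as sources, select THY1-positive cells on magnetic columns and, where performed, deplete PECAM1-positive cells first. The study's results say that this depletion was added for characterising the *Sox17*-*Erg* cells, to limit endothelial contamination. The labels do not say which mouse line gave these libraries. One arm carried retroviral *Sox17* and *Erg*, an endothelial SOX factor and an endothelial ETS factor, and the other was the control, whose column names hold PMX, the name of the retroviral backbone. The labels do not describe what the control virus carried. Each arm was sampled on Day 3, on Day 7 and after 4 weeks, in 2 libraries per group, which makes 6 groups. Nothing in the labels says that the 2 libraries of a group came from separate isolations, so the p-values measure the spread between these libraries, which may be technical.

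Library totals ran from 19011635 to 41240449 counts. *Sox17* was at 0 to 9 counts in each control library and at 10019 or more in each *Sox17*-*Erg* library, and *Erg* ran from 2 to 49 counts in control against 389 to 1842. Fibroblast markers were detected in every library, 7 of 7, with a summed level of 11810 to 35660 CPM (library-scaled counts, with TMM factors) in control and 10020 to 39050 CPM in *Sox17*-*Erg*. Of these 7, the numbers called lower at the 3 successive time points were 1, 2 and 3, and 1, *Postn*, was higher at Day 7 and 4 weeks. Of 4 smooth muscle markers 0, 3 and 2 were higher at the 3 time points, and of 6 cardiomyocyte markers 1, 1 and 3 were lower. Of 6 leukocyte markers 0 were called at any time. Their sum at Day 7 was 801.6 and 1200 CPM in control and 238.2 and 404.3 CPM in *Sox17*-*Erg*. At 4 weeks it was 43.8 and 390.1 CPM in control and 59.3 and 291.3 CPM in *Sox17*-*Erg*. The 7 endothelial markers summed to 17.4 to 51.9 CPM in control and 305 to 767.9 CPM in *Sox17*-*Erg*, none of them at 0. Among the control libraries, replicate 2 held more *Cdh5* than replicate 1 at Day 3, with 14.3 against 0.909 CPM, and at Day 7, with 8.07 against 0.230 CPM. The 8 epicardial and mesothelial markers summed to 366.9 to 1538 CPM in control and 214.1 to 397.7 CPM in *Sox17*-*Erg*. In bulk RNA, fewer cells of a type and less RNA per cell cannot be told apart.

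*Aldh1a3* and *Crabp1* had few counts in control and were higher with *Sox17*-*Erg* at each time point, and *Cyp26b1* was higher at Day 7 and 4 weeks. *Aldh1a1* was lower at each time point, *Aldh1a2* and *Rarb* at Day 7 and 4 weeks, and *Rara* at Day 3. *Rarg* passed at none of the 3 time points. Calls were made with edgeR's quasi-likelihood test at a Benjamini-Hochberg adjusted p under 0.05 over all tested genes. At Day 3, 2 members were called higher and 2 lower, where 7.22% of all tested genes were higher and 5.11% lower. At Day 7, 3 were higher and 3 lower, against 9.55% and 7.98% of all genes. At 4 weeks, 3 were higher and 3 lower, against 11.9% and 11.0%. The median log2 fold change of the 8 tested members went from 0.08 on Day 3 through -0.25 on Day 7 to 0.22 after 4 weeks, beside 0.01, 0.0058 and -0.0143 over all tested genes. Calls of members went in both directions at each time point.

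**Figure D1:**
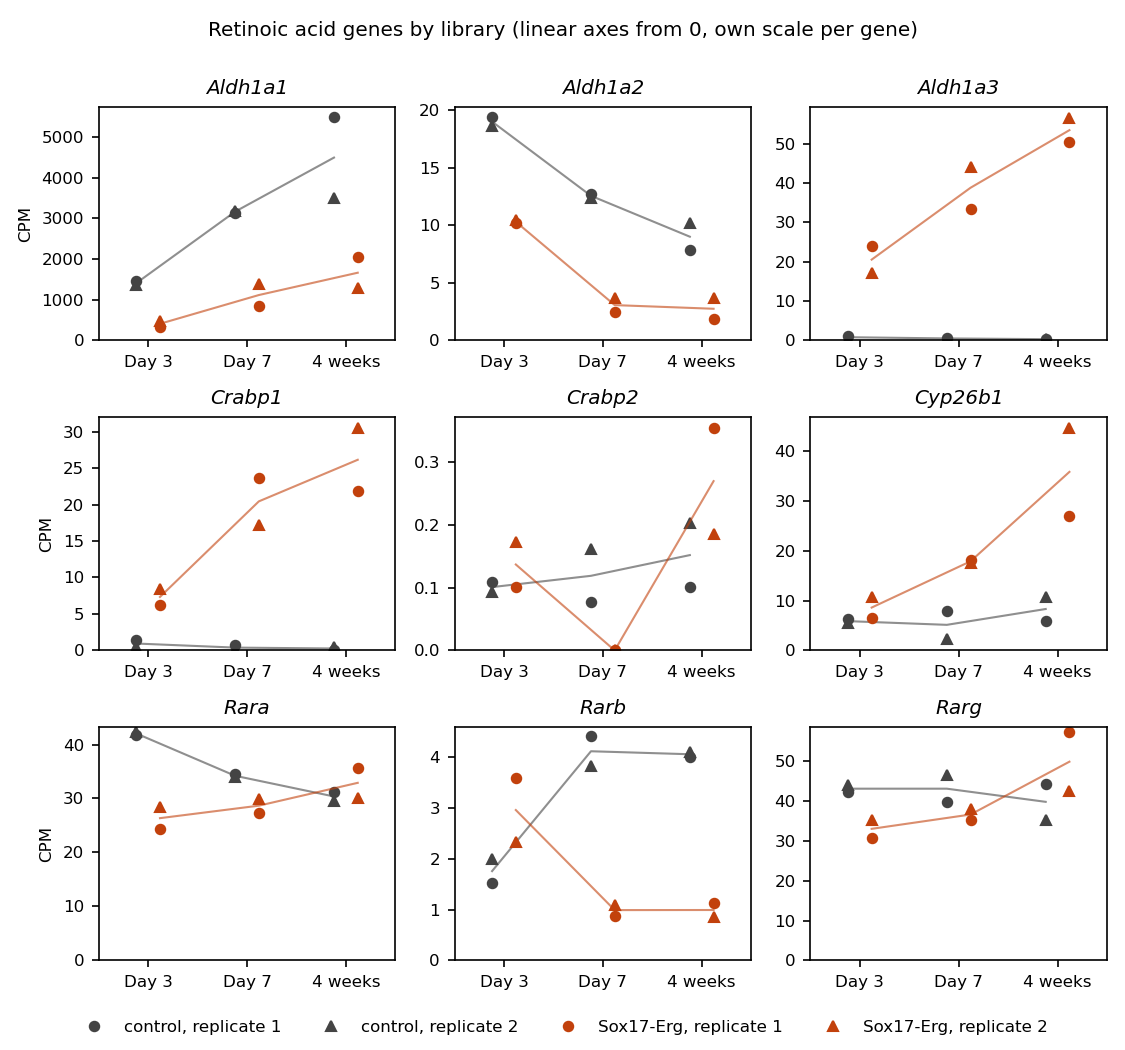
CPM of each of the 9 genes in each of the 12 libraries by time point, control in grey and *Sox17*-*Erg* in orange, with circles for replicate 1, triangles for replicate 2 and lines through the group means. *Aldh1a3* and *Crabp1* lay near 0 in every control library, and *Rarb* crossed from above control at Day 3 to below it at Day 7 and 4 weeks.

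*Aldh1a1*, a cytosolic retinal dehydrogenase on chromosome 19 (GRCm38, 20492715 to 20643465, plus strand), was the most abundant member. It stood at 1462 and 1350 CPM in control at Day 3, 3137 and 3188 CPM at Day 7 and 5475 and 3505 CPM at 4 weeks. With *Sox17*-*Erg* the values were 331.5 and 485.5 CPM, 843.8 and 1385 CPM, and 2045 and 1280 CPM. The groups did not overlap at any of the 3 time points, and each arm's lowest library was at Day 3. The log2 fold change was -1.78 ± 0.34 (SE) at Day 3 (edgeR adjusted p = 0.0128), -1.50 ± 0.33 at Day 7 (edgeR adjusted p = 0.0152) and -1.43 ± 0.33 at 4 weeks (edgeR adjusted p = 0.0138). From Day 3 to 4 weeks it rose by 1.68 ± 0.34 on the log2 scale in control (edgeR adjusted p = 0.0075) and by 2.02 ± 0.34 in *Sox17*-*Erg* (edgeR adjusted p = 0.00323). The effect of *Sox17*-*Erg* did not pass the test of a difference between 4 weeks and Day 3, at 0.35 with a 95% interval of -0.69 to 1.39.

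Some fibroblast markers were lower beside *Aldh1a1*. At 4 weeks *Dcn*, *Pdgfra* and *Tcf21* had mean levels of 2601, 1633 and 451.8 CPM in control and 262.6, 332.6 and 102.5 CPM in *Sox17*-*Erg*, with log2 fold changes of -3.31, -2.30 and -2.14 (edgeR adjusted p = 0.00376, 0.0183 and 0.0435). *Postn*, a matrix gene of activated fibroblasts, was higher there, at 53.9 against 1443 CPM. The part of fibroblast marker levels in the lower *Aldh1a1* was not tested.

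Each call of *Aldh1a1* was lost in some fits with a library left out. The Day 3 call was lost without control replicate 1, control replicate 2 or *Sox17*-*Erg* replicate 1 of that day, with edgeR adjusted p = 0.0691, 0.0575 and 0.126. The Day 7 call was lost without control replicate 2 (edgeR adjusted p = 0.0632) or *Sox17*-*Erg* replicate 1 (edgeR adjusted p = 0.127) of that day, and also with that day's 4 libraries fitted on their own (edgeR adjusted p = 0.0519). The 4-week call was lost without control replicate 1 (edgeR adjusted p = 0.095) or *Sox17*-*Erg* replicate 2 (edgeR adjusted p = 0.085), and the control rise was lost without control replicate 2 of Day 3 (edgeR adjusted p = 0.0585) or replicate 1 of 4 weeks (edgeR adjusted p = 0.0525). The direction was the same in all of these fits. Of the 31-base words in its annotated transcripts, 5.70% also occur in *Aldh1a7*, a close relative, so a small part of its estimated counts could belong there.

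*Aldh1a2*, the retinal dehydrogenase of the epicardium and the early embryo, lies on chromosome 9 (GRCm38, 71215789 to 71296243, plus strand). It was at 19.4 and 18.6 CPM in control at Day 3, 12.7 and 12.4 CPM at Day 7 and 7.84 and 10.2 CPM at 4 weeks. The *Sox17*-*Erg* libraries held 10.2 and 10.5 CPM, 2.45 and 3.69 CPM, and 1.84 and 3.67 CPM. The groups were apart at each time point, and the arms both ended lower than they began. The log2 fold change was -0.88 ± 0.29 at Day 3, which did not pass (edgeR adjusted p = 0.0766), though it passed with the replicate number as a block (edgeR adjusted p = 0.0474) and with DESeq2 (adjusted p = 0.0281). It was -2.05 ± 0.31 at Day 7 (edgeR adjusted p = 0.00249) and -1.71 ± 0.31 at 4 weeks (edgeR adjusted p = 0.00402), and these calls held with each library left out in turn. In those fits it ran from -2.40 to -1.77 at Day 7. At 4 weeks it ran from -2.31, without *Sox17*-*Erg* replicate 2, to -1.30.

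*Aldh1a2* fell with time in both arms, by 1.08 ± 0.29 in control (edgeR adjusted p = 0.024) and by 1.91 ± 0.31 in *Sox17*-*Erg* (edgeR adjusted p = 0.00277), both on the log2 scale. The control fall was lost without control replicate 1 of Day 3 (edgeR adjusted p = 0.104), replicate 2 of Day 3 (edgeR adjusted p = 0.0842) or replicate 1 of 4 weeks (edgeR adjusted p = 0.153). Epicardial and mesothelial markers moved with the difference between arms: 2 of 8 were lower at Day 3, 5 of 8 at Day 7 and 7 of 8 at 4 weeks. *Tbx18*, which was on the list too, went the other way at Day 7, at 48.4 and 42.2 CPM in control and 72.5 and 70.6 CPM in *Sox17*-*Erg* (edgeR adjusted p = 0.00374). Among them *Wt1*, a transcription factor of the epicardium, was at 50.3 and 28.7 CPM in control and 8.10 and 8.92 CPM in *Sox17*-*Erg* at 4 weeks. Within control the markers did not follow *Aldh1a2*: their sum was 876.1 and 366.9 CPM at Day 3 and 1538 and 992.0 CPM at 4 weeks. Their part in the lower *Aldh1a2* was not tested.

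*Aldh1a3*, a retinal dehydrogenase known from the developing eye and nose on chromosome 7 (GRCm38, 66390890 to 66427517, minus strand), went the other way. Control libraries held 1.16 and 0.462 CPM at Day 3, 0.691 and 0.321 CPM at Day 7 and 0.351 and 0.285 CPM at 4 weeks, from 7 to 32 counts each. With *Sox17*-*Erg* the libraries held 24.0 and 17.1 CPM, 33.5 and 44.2 CPM, and 50.4 and 56.5 CPM, from 396 to 1527 counts each. The lowest *Sox17*-*Erg* library was far above the highest control library, and the distance was wider at each later time point. The log2 fold change was 4.61 ± 0.39 at Day 3 (edgeR adjusted p = 0.000425), 6.24 ± 0.41 at Day 7 (edgeR adjusted p = 7.14e-05) and 7.35 ± 0.43 at 4 weeks (edgeR adjusted p = 1.63e-05). As a ratio of mean CPM this was 25.3-fold, 76.7-fold and 168.3-fold. With a library left out, the log2 fold change ran from 4.10 to 5.46 at Day 3 and from 5.80 to 6.87 at Day 7. The highest value of each day was without its control replicate 1. At 4 weeks the range was 7.24 to 7.53. Each of the 3 calls held with each library left out and under the 8 other settings tried. Of its 31-base words, 2.15% also occur in other genes, spread over 596 of them.

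*Aldh1a3* also rose with time in *Sox17*-*Erg*, by 1.38 ± 0.30 on the log2 scale from Day 3 to 4 weeks (edgeR adjusted p = 0.00964). That rise was lost without *Sox17*-*Erg* replicate 2 of Day 3 (edgeR adjusted p = 0.0711) or of 4 weeks (edgeR adjusted p = 0.052). Its *Sox17*-*Erg* effect was larger at 4 weeks than at Day 3 by 2.74 ± 0.59 (edgeR adjusted p = 0.0419), a difference that was past the threshold in 3 of the 12 fits with a library left out, with adjusted p from 0.0295 to 0.24, and that was lost with no filter on low counts (edgeR adjusted p = 0.0736). Endothelial markers were higher with *Sox17*-*Erg* too: 4 of 7 at Day 3, 5 of 7 at Day 7 and 6 of 7 at 4 weeks. Over time in *Sox17*-*Erg* most did not rise with *Aldh1a3*. From Day 3 to 4 weeks 3 of 7 were above 0, 2 called higher and 1 lower, against 15.1% and 15.7% of tested genes. Their sum rose from 430.9 and 305 CPM to 767.9 and 604.8 CPM. The difference in effect was above 0 for 5 of 7 and called larger for 1, against 2.23% of tested genes. In control at Day 3 and Day 7, replicate 2 held more endothelial RNA and less *Aldh1a3* than replicate 1. The *Aldh1a3* counts there were few, 10 against 32 at Day 3 and 8 against 18 at Day 7. The part of endothelial RNA in the result was not tested.

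**Figure D2:**
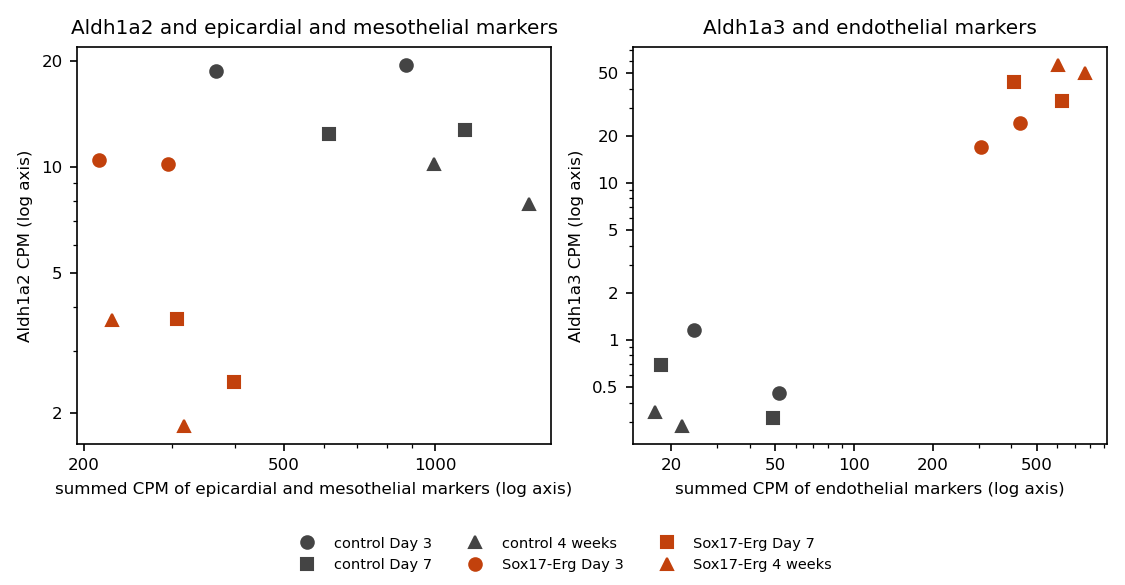
CPM of *Aldh1a2* against the summed CPM of 8 epicardial and mesothelial markers (left) and CPM of *Aldh1a3* against the summed CPM of 7 endothelial markers (right), both on log axes, 1 point per library. On the left, within each time point, the control libraries hold more marker RNA and more *Aldh1a2*, while across time points the marker sums of the arms overlap, and on the right the 6 *Sox17*-*Erg* libraries stand apart from the 6 control libraries on both axes.

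Levels can be set side by side per kb of exon length. On that scale *Aldh1a1* made up most of the 3 retinal dehydrogenases in every library, from 97.0% to 99.7% of their summed CPM per kb in control and from 87.4% to 97.3% in *Sox17*-*Erg*. *Aldh1a3* took 0.0068% to 0.083% of the sum in control and 2.56% to 6.77% with *Sox17*-*Erg*. The sum itself was 281.7 to 1113 CPM per kb in control and 76.8 to 425.8 CPM per kb in *Sox17*-*Erg*. The order in control at 4 weeks was *Aldh1a1* at 909.5 ± 282.2 CPM per kb (SD, n = 2), *Aldh1a2* at 3.99 ± 0.74 and *Aldh1a3* at 0.069 ± 0.010. In *Sox17*-*Erg* at that time *Aldh1a3* stood second, at 11.6 ± 0.94 CPM per kb, and *Aldh1a2* last, at 1.22 ± 0.57. So *Aldh1a3* passed *Aldh1a2* in rank while *Aldh1a1* kept the first place. These are RNA levels, and enzyme activity was not measured here.

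*Crabp1* encodes a cytosolic carrier of retinoic acid and lies on chromosome 9 (GRCm38, 54764748 to 54773110, plus strand). Control libraries had 38 and 11 counts on Day 3, 18 and 2 counts on Day 7 and 0 and 13 counts after 4 weeks, which is 1.38 and 0.508 CPM, 0.691 and 0.080 CPM, and 0 and 0.528 CPM. The *Sox17*-*Erg* libraries held 6.17 and 8.49 CPM, 23.6 and 17.2 CPM, and 21.8 and 30.5 CPM. All 6 *Sox17*-*Erg* libraries were above all 6 control libraries. At Day 7 the log2 fold change was 5.70 ± 0.93 (edgeR adjusted p = 0.00399) and at 4 weeks 6.88 ± 0.997 (edgeR adjusted p = 0.00146). Both calls held with each library left out and under the 8 other settings tried. Their size rested on few control counts. At Day 7 it was 7.89 without control replicate 1 and 4.88 without control replicate 2. At 4 weeks it was 12.47 without control replicate 2, which leaves a control library of 0 counts, and 5.61 without control replicate 1.

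At Day 3 *Crabp1* sat at the threshold, with a log2 fold change of 2.92 ± 0.82 (edgeR adjusted p = 0.0498). The call was lost with the replicate block (edgeR adjusted p = 0.0746), with DESeq2 (adjusted p = 0.125) and without any 1 of 8 libraries, where edgeR adjusted p reached 0.263. The 4 libraries of Day 3 were among those 8, with edgeR adjusted p = 0.122 and 0.263 without control replicate 1 and 2, and 0.183 and 0.137 without *Sox17*-*Erg* replicate 1 and 2. The other 4 were the *Sox17*-*Erg* libraries of Day 7 and 4 weeks, with edgeR adjusted p from 0.0756 to 0.087. The change of the *Sox17*-*Erg* effect from Day 3 to 4 weeks was 3.96 on the log2 scale, with a 95% interval of 1.05 to 6.87, and did not pass (edgeR adjusted p = 0.151).

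*Crabp2*, the carrier that hands retinoic acid to the receptors, lies on chromosome 3 (GRCm38, 87948666 to 87953376, plus strand) and was barely detected. No library held more than 10 counts, and the *Sox17*-*Erg* libraries of Day 7 held 0, where 3 counts, the limit that a count of 0 allows, would be 0.083 and 0.132 CPM. Arms overlapped at Day 3 and 4 weeks. No difference in *Crabp2* was detectable at this depth.

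*Cyp26b1*, a cytochrome P450 that degrades retinoic acid, lies on chromosome 6 (GRCm38, 84571414 to 84593908, minus strand). It was at 6.22 and 5.55 CPM in control at Day 3, 7.98 and 2.29 CPM at Day 7 and 5.99 and 10.7 CPM at 4 weeks. Under *Sox17*-*Erg* it was at 6.58 and 10.6 CPM, 18.2 and 17.6 CPM, and 27.0 and 44.8 CPM. The arms nearly touched at Day 3 and were apart at Day 7 and 4 weeks. The log2 fold change was 0.55 ± 0.52 at Day 3 (edgeR adjusted p = 0.519), 1.80 ± 0.52 at Day 7 (edgeR adjusted p = 0.0436) and 2.12 ± 0.51 at 4 weeks (edgeR adjusted p = 0.0174). Within *Sox17*-*Erg* it rose by 2.05 ± 0.52 on the log2 scale from Day 3 to 4 weeks (edgeR adjusted p = 0.0166).

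The Day 7 call of *Cyp26b1* was lost with the replicate block (edgeR adjusted p = 0.0758), with no filter on low counts (edgeR adjusted p = 0.161) and on that day's own libraries (edgeR adjusted p = 0.153). It held in 1 of the 12 fits with a library left out, the one without control replicate 1 of Day 7, where the log2 fold change was 2.94. Without control replicate 2 of Day 7 it was 1.16 (edgeR adjusted p = 0.16). Over the 11 fits in which it was lost, the edgeR adjusted p ran from 0.0527 to 0.19. The 4-week call was lost without control replicate 1 (edgeR adjusted p = 0.131) or *Sox17*-*Erg* replicate 2 (edgeR adjusted p = 0.104) of that time. The rise within *Sox17*-*Erg* was lost without replicate 1 of Day 3 (edgeR adjusted p = 0.112) or replicate 2 of 4 weeks (edgeR adjusted p = 0.0949). With no filter on low counts the 4-week call and this rise were lost too (edgeR adjusted p = 0.0841 and 0.0766).

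**Figure D3:**
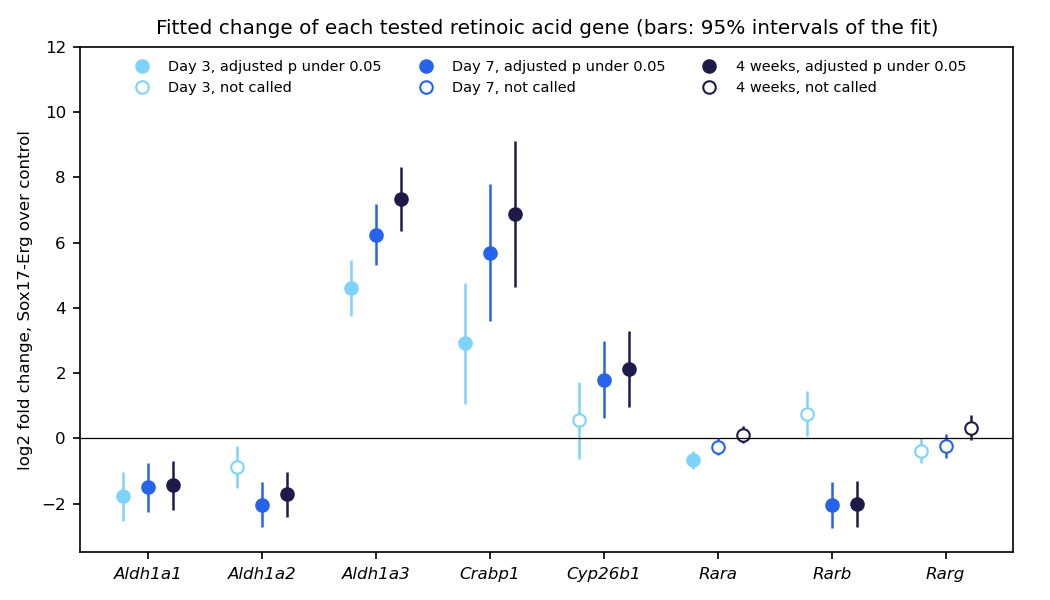
Log2 fold change of *Sox17*-*Erg* over control for the 8 tested genes at Day 3, Day 7 and 4 weeks, with 95% intervals of the fit; filled points passed an adjusted p under 0.05. *Aldh1a3* ran from 4.61 to 7.35 and *Crabp1* from 2.92 to 6.88, while the intervals of *Rara* and *Rarg* stayed within 1 of 0.

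Among the receptors, *Rarb* changed most. It lies on chromosome 14 (GRCm38, 16430839 to 16819156, minus strand) and is itself a classical target of retinoic acid, induced through a response element in its promoter. Control libraries held 1.53 and 1.99 CPM at Day 3, 4.41 and 3.82 CPM at Day 7 and 4.01 and 4.11 CPM at 4 weeks. The *Sox17*-*Erg* libraries held 3.59 and 2.33 CPM, 0.882 and 1.10 CPM, and 1.13 and 0.852 CPM. The *Sox17*-*Erg* pair was above control at Day 3 and below it at Day 7 and 4 weeks, with no overlap at any time. The log2 fold change was 0.75 ± 0.30 at Day 3, which did not pass (edgeR adjusted p = 0.134), -2.06 ± 0.31 at Day 7 (edgeR adjusted p = 0.00264) and -2.03 ± 0.31 at 4 weeks (edgeR adjusted p = 0.00188). The Day 7 and 4-week calls held with each library left out and under the 8 other settings tried.

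*Rarb* moved in opposite directions over time in the arms. It rose by 1.21 ± 0.30 on the log2 scale from Day 3 to 4 weeks in control (edgeR adjusted p = 0.0181) and fell by 1.57 ± 0.31 in *Sox17*-*Erg* (edgeR adjusted p = 0.00669). The difference of the *Sox17*-*Erg* effect between 4 weeks and Day 3 was -2.78 ± 0.43 (edgeR adjusted p = 0.0111), and it was lost without control replicate 1 of Day 3 (edgeR adjusted p = 0.0563). Between Day 7 and Day 3 it was -2.81 ± 0.44 and did not pass (edgeR adjusted p = 0.0752). The control rise was lost without any 1 of the 4 control libraries of Day 3 and 4 weeks, with edgeR adjusted p from 0.0589 to 0.127, and the *Sox17*-*Erg* fall without *Sox17*-*Erg* replicate 1 of Day 3 (edgeR adjusted p = 0.0606). The level was low throughout, with 23 to 160 counts per library.

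The RefSeq promoter window of *Rarb*, 250 bases before to 50 after the annotated start, is shown because *Rarb* is a classical target of the receptors themselves. Capitals mark the searched motifs, each on both strands. The single sites of the retinoic acid receptors were AGGTCA, then AGTTCA, then GGGTCA, then GGTTCA. The SOX motif was ACAATG, and the ETS motifs were AGGAAG, then CGGAAG. The windows of *Cyp26b1* and *Crabp1*, which rose with *Sox17*-*Erg*, are set beside it. The build is GRCm38.p6, and each is written 5′ to 3′ on the gene's strand.
Rarb, minus strand, chr14:16575427-16575726: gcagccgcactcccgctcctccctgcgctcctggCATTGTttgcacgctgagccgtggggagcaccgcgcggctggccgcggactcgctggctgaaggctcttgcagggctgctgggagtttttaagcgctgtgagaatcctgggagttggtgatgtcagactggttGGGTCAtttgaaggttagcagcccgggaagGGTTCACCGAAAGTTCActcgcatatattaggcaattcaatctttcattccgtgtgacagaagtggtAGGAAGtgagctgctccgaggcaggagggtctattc
Cyp26b1, minus strand, chr6:84593761-84594060: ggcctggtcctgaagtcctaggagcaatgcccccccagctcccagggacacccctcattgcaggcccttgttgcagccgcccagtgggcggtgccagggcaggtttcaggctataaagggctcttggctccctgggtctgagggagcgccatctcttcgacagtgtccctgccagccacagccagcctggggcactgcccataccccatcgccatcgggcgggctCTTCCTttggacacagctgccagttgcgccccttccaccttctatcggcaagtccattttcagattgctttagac
Crabp1, plus strand, chr9:54764498-54764797: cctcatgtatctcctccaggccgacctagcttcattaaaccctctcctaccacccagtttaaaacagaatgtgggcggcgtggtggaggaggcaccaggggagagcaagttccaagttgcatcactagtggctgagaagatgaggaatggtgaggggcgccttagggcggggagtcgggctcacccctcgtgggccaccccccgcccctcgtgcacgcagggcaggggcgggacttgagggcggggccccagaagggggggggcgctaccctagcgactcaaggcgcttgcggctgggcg

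In the *Rarb* window 2 of the single sites form a direct repeat with 5 bases between them, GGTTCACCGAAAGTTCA, from 53 to 37 bases before the start. Of 32851 RefSeq windows of this length, over 27025 genes, 0.0974% hold such a repeat. The window holds 3 single sites in all, counting those of the repeat, 1 SOX match and 1 ETS match. Of all windows, 43.7% hold 1 or more single sites, 12.6% 1 or more SOX matches and 46.5% 1 or more ETS matches. The share with 3 single sites was not counted. The *Cyp26b1* window holds 1 ETS match, and no searched letters occur in that of *Crabp1*. RefSeq windows were found for 7 of the 9 genes, 12 windows in all, and the direct repeat with 5 bases between occurred in the *Rarb* window among these 12. A match is a description of letters, and binding was not measured here.

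The exons of *Rarb* overlap those of *Top2b*, a DNA topoisomerase on the opposite strand, over 34.1% of its exon length. *Top2b* was at 164.7 to 267.9 CPM, far above *Rarb* in every library. Its log2 fold changes were 0.30 ± 0.12, 0.41 ± 0.12 (edgeR adjusted p = 0.0393) and 0.14 ± 0.12 at the 3 time points. The library kit keeps the strand, and the counting setting is not given in the sources used here, so the part of *Top2b* reads in the *Rarb* counts was not tested. At Day 3 both log2 fold changes were above 0, and at Day 7 *Rarb* was called lower and *Top2b* higher. At 4 weeks *Rarb* was called lower, with *Top2b* at 0.14.

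*Rara*, a broadly expressed receptor on chromosome 11 (GRCm38, 98927818 to 98974942, plus strand), was lower at Day 3. Control libraries held 41.8 and 42.3 CPM at Day 3, 34.5 and 33.9 CPM at Day 7 and 31.2 and 29.5 CPM at 4 weeks. With *Sox17*-*Erg* it stood at 24.3 and 28.4 CPM, 27.4 and 30.0 CPM, and 35.7 and 30.1 CPM. The arms were apart at Day 3 and Day 7 and overlapped at 4 weeks. The log2 fold change was -0.67 ± 0.12 at Day 3 (edgeR adjusted p = 0.0107), -0.26 ± 0.12 at Day 7 (edgeR adjusted p = 0.18) and 0.12 ± 0.12 at 4 weeks (edgeR adjusted p = 0.539), the last with a 95% interval of -0.15 to 0.38. The effect differed between 4 weeks and Day 3 by 0.79 ± 0.17 (edgeR adjusted p = 0.0419). In control *Rara* fell by 0.47 ± 0.12 on the log2 scale from Day 3 to 4 weeks (edgeR adjusted p = 0.0199).

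The Day 3 call of *Rara* was lost without control replicate 1 (edgeR adjusted p = 0.0647), control replicate 2 (edgeR adjusted p = 0.0617) or *Sox17*-*Erg* replicate 1 (edgeR adjusted p = 0.101) of that day. The difference between times was past the threshold in 3 of the 12 fits with a library left out, where edgeR adjusted p ran from 0.0459 to 0.138. The control fall was lost without any 1 of the 4 control libraries of Day 3 and 4 weeks, with edgeR adjusted p from 0.0744 to 0.0973.

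*Rarg*, the receptor best known from skin and cartilage, lies on chromosome 15 (GRCm38, 102234938 to 102257517, minus strand). Control libraries held 42.2 and 43.9 CPM at Day 3, 39.7 and 46.4 CPM at Day 7 and 44.2 and 35.3 CPM at 4 weeks. The *Sox17*-*Erg* libraries held 30.8 and 35.2 CPM, 35.3 and 37.9 CPM, and 57.2 and 42.5 CPM. Control was above *Sox17*-*Erg* at Day 3 and Day 7 and overlapped it at 4 weeks. None of the 3 log2 fold changes passed: -0.38 (95% interval -0.76 to -0.0053), -0.24 (-0.61 to 0.14) and 0.32 (-0.051 to 0.70), with edgeR adjusted p = 0.161, 0.367 and 0.196. With the replicate number as a block within each time point, those of Day 3 and 4 weeks passed, at edgeR adjusted p = 0.0269 and 0.0393. Within *Sox17*-*Erg* it rose by 0.59 ± 0.17 on the log2 scale from Day 3 to 4 weeks (edgeR adjusted p = 0.0258), a call lost without *Sox17*-*Erg* replicate 1 of Day 3 (edgeR adjusted p = 0.115), replicate 2 of Day 3 (edgeR adjusted p = 0.0569) or replicate 1 of 4 weeks (edgeR adjusted p = 0.134).

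Per kb of exon length the order was *Rarg*, *Rara* and then *Rarb* in each of the 12 libraries. In control at 4 weeks *Rarg* stood at 9.33 ± 1.47 CPM per kb (SD, n = 2), *Rara* at 6.96 ± 0.28 and *Rarb* at 0.771 ± 0.013. In *Sox17*-*Erg* at 4 weeks they stood at 11.7 ± 2.4, 7.54 ± 0.90 and 0.188 ± 0.038 CPM per kb. In control at Day 3 *Rarg* at 10.1 ± 0.28 and *Rara* at 9.63 ± 0.095 CPM per kb were nearest to each other, with 9.91 and 10.3 against 9.57 and 9.70 in the libraries. *Rarb* made up 3.74% to 4.93% of the summed receptor level in the control libraries of Day 7 and 4 weeks, and 0.949% to 1.31% in the *Sox17*-*Erg* libraries of those times. At Day 3 its share was the other way, 1.47% and 1.85% in control and 5.07% and 2.90% in *Sox17*-*Erg*.

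Over time within an arm, 2 members rose and 2 fell from Day 3 to 4 weeks in control, where 13.9% of tested genes rose and 12.6% fell. In *Sox17*-*Erg* 4 rose and 2 fell, against 15.1% and 15.7%. For the change of the *Sox17*-*Erg* effect between 4 weeks and Day 3, 2 members were called higher and 1 lower, against 2.23% and 1.0% of tested genes. An exact permutation test of each gene over the 3 time points, two-sided, with labels permuted within each time point, gave p = 0.00926, the smallest that its 216 arrangements allow, for *Aldh1a1*, *Aldh1a2*, *Aldh1a3*, *Crabp1* and *Cyp26b1*. It gave an exact p = 0.0556 for *Rarb*, 0.0926 for *Rara*, 0.481 for *Rarg* and 0.704 for *Crabp2*. With labels swapped only within same-numbered pairs, a scheme added after seeing the data, the same 5 genes gave an exact p = 0.0312, the smallest that its 64 arrangements allow, and the other 4 gave 0.125 or more. These are tests of 1 gene each, not adjusted. Any gene whose arms stand apart in the same direction at all 3 time points reaches these limits. The share of all tested genes that does so was not computed.

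The genes whose log2 CPM followed each member most closely over the 12 libraries are given as a description, since libraries of a group share their treatment and time. For *Aldh1a1* they were *Timp2*, *Cd34* and *Igfbp6*, with Pearson's r of 0.991, 0.986 and 0.986. For *Aldh1a3* they were *Crym*, *Met* and *Lpar6*, each at 0.990, and for *Crabp1* *Sertad4*, *Ppp1r13l* and *Podxl*, at 0.980, 0.974 and 0.972. For *Aldh1a2* they were *Soat1*, *Ugdh* and *Abcc3*, at 0.947, 0.945 and 0.942, and for *Cyp26b1* *Mfsd14b*, *Il4* and *Gm48270*, at 0.947, 0.937 and 0.924. For *Rarb* they were *Mpp6*, *Samhd1* and *Spry3*, at 0.938, 0.916 and 0.915, and for *Rara* *B230118H07Rik*, *Catip* and *Jade2*, at 0.933, 0.909 and 0.882. Among the members, *Aldh1a3* and *Crabp1* followed each other most closely, with r of 0.953 over the same 12 libraries. *Aldh1a1* and *Aldh1a2*, both lower with *Sox17*-*Erg*, followed each other little, with r of 0.072.

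The rest of the pathway was read from 74 listed genes, 58 of them tested. At Day 3, 5 were higher and 4 lower, where 7.22% and 5.11% of all tested genes were. At Day 7 the counts were 4 and 11, against 9.55% and 7.98%, and at 4 weeks 5 and 12, against 11.9% and 11.0%. The counts of the smaller lists that follow are to be read against the same shares. Their median log2 fold change was -0.052, -0.24 and -0.18, beside 0.01, 0.0058 and -0.0143 over all tested genes. With the replicate number as a block, the count lower at Day 3 was 7, and with a block within each time point the counts lower at Day 3 and Day 7 were 9 and 17. Of the 9, 15 and 17 calls, 3, 5 and 8 held with each library left out in turn. In separate fits of the 4 libraries of a time point, the Day 7 calls of *Adh1*, *Akr1b3*, *Akr1b8*, *Aox1*, *Nrip1*, *Rbp4* and *Rxra* and the 4-week calls of *Nr2f1* and *Zfp703* were lost, with edgeR adjusted p from 0.0524 to 0.151. Among the genes called at 1 or more time points, a block within each time point added calls of *Akr1b3*, *Ncoa3*, *Rarres2*, *Rxra* and *Tgm2* as lower at Day 3, of *Ncoa3* as lower at Day 7, of *Hoxb3* as higher at Day 7 and of *Cyp2s1* as lower at 4 weeks, with edgeR adjusted p from 0.00522 to 0.0437. Its further added calls were of genes that passed at no time point without the block.

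Of 10 genes of retinol uptake, transport and storage, 5 were tested, with 0 called at Day 3 and 2 lower at Day 7 and at 4 weeks. *Lrat*, which esterifies retinol for storage, had 3 and 1 counts in control on Day 3, 203 and 321 counts on Day 7 and 11228 and 3274 counts after 4 weeks. In *Sox17*-*Erg* it was at 0 and 1, 0 and 4, and 13 and 23 counts. At 4 weeks this is 281.2 and 133.1 CPM in control against 0.460 and 0.852 CPM. The ratio was 345-fold (95% counting interval 249.1 to 493) at 4 weeks and 152-fold (59.0 to 559.5) at Day 7, and *Lrat* was called lower at both with each library left out (edgeR adjusted p = 3.79e-05 and 0.000562). These intervals cover counting error only. The 4-week ratio was 204.3 without control replicate 1, and that of Day 7 was 58.6 without *Sox17*-*Erg* replicate 1. Without *Sox17*-*Erg* replicate 2 of Day 7, which leaves a library of 0 counts, the fitted log2 fold change there went from -7.14 to -11.16. The control rise from Day 3 to 4 weeks was called too (edgeR adjusted p = 9.13e-05). *Rbp4*, the retinol carrier of plasma, had 51 and 11 counts in control at Day 7 and 0 in both *Sox17*-*Erg* libraries, at least 11.2-fold lower against a floor of 3 counts per library (edgeR adjusted p = 0.0101), a call lost without *Sox17*-*Erg* replicate 1 of Day 7 (edgeR adjusted p = 0.0775). The bound was 4.12-fold without control replicate 1 and 18.3-fold without control replicate 2 of that day. At 4 weeks *Rbp4* had 38 and 44 counts against 7 and 2, a ratio of 7.81 (95% counting interval 3.92 to 17.7; edgeR adjusted p = 0.0465), a call lost without any 1 of the 8 libraries of Day 3 and 4 weeks, up to edgeR adjusted p = 0.195. That ratio was 17.2 without *Sox17*-*Erg* replicate 1, against 2 counts, and 5.13 without *Sox17*-*Erg* replicate 2.

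The retinol and retinal interconverting enzymes held 1 gene that was higher at each time point and 1, 4 and 4 that were lower, of 16 tested of 17. *Adh7*, an alcohol dehydrogenase that oxidises retinol, was at 0.291 and 0.277 CPM in control at Day 3 and at 8.30 and 8.49 CPM in *Sox17*-*Erg*. At 4 weeks it was at 0.050 and 0.163 CPM against 12.3 and 17.0 CPM, a log2 fold change of 7.19 ± 0.44 (edgeR adjusted p = 1.63e-05). *Adh7* was thus higher in *Sox17*-*Erg* at all 3 times, and each call held with each library left out. The 4-week size rests on 2 and 4 control counts, and the log2 fold change was 6.45 without control replicate 1 and 8.07 without control replicate 2. *Dhrs3*, which reduces retinal to retinol and is induced by retinoic acid, was at 61.1 and 62.7 CPM in control and 23.6 and 21.96 CPM in *Sox17*-*Erg* at Day 7, a log2 fold change of -1.44 ± 0.17 (edgeR adjusted p = 0.000799). At 4 weeks *Dhrs3* was lower by -0.94 ± 0.17 (edgeR adjusted p = 0.0039), and it rose with time in both arms, by 2.53 ± 0.18 in control (edgeR adjusted p = 9.76e-05) and 1.56 ± 0.17 in *Sox17*-*Erg* (edgeR adjusted p = 0.00065). *Adh1*, *Akr1b3* and *Akr1b8* were lower at Day 7 and 4 weeks, and *Akr1b8* at Day 3 as well. At 4 weeks their log2 fold changes were -3.33 ± 0.82, -1.56 ± 0.26 and -0.99 ± 0.13, and that of *Adh1* was -2.46 without control replicate 1 and -4.29 without *Sox17*-*Erg* replicate 2. The 4-week call of *Adh1* was lost without control or *Sox17*-*Erg* replicate 1 of that time, up to edgeR adjusted p = 0.136, while those of *Akr1b3* and *Akr1b8* held with each library left out. The *Adh1* calls of Day 7 and 4 weeks were also lost with a replicate block within each time point (edgeR adjusted p = 0.0641 and 0.0543) and with no filter on low counts (edgeR adjusted p = 0.112 and 0.0818). The Day 3 call of *Akr1b8* (edgeR adjusted p = 0.035) was lost in 5 of the 12 fits with a library left out, among them those without each of the 4 libraries of Day 3, up to edgeR adjusted p = 0.221. Their Day 7 calls were lost without 1 or more of the Day 7 libraries, among them *Sox17*-*Erg* replicate 1 for all 3 genes.

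Of 7 other enzymes of retinal oxidation and retinoic acid removal, 4 were tested, and 3 were lower at Day 3, 2 at Day 7 and 0 at 4 weeks. They were *Aldh1a7*, at -2.09 ± 0.43 (edgeR adjusted p = 0.0179) at Day 3, *Aox1* and *Cyp2s1*. *Aldh1a7* shares 13.8% of its 31-base words with *Aldh1a1*, and its Day 3 call was lost without control replicate 1, control replicate 2 or *Sox17*-*Erg* replicate 1 of that day, where edgeR adjusted p reached 0.154. It was lost as well with a replicate block within each time point (edgeR adjusted p = 0.0567) and with no filter on low counts (edgeR adjusted p = 0.0738). *Cyp2s1* was lower by -3.13 ± 0.64 at Day 3 (edgeR adjusted p = 0.0175) and -3.16 ± 0.67 at Day 7 (edgeR adjusted p = 0.0127). Those calls were lost without control replicate 1 or *Sox17*-*Erg* replicate 1 of the same day, and at Day 3 also without *Sox17*-*Erg* replicate 2, up to edgeR adjusted p = 0.116 and 0.129. Without control replicate 1 the log2 fold changes were -2.32 and -2.47. At 4 weeks *Cyp2s1* stood at -2.03 ± 0.65 and did not pass (edgeR adjusted p = 0.0505), while it passed with the replicate block over all libraries (edgeR adjusted p = 0.00824), with the block within each time point (edgeR adjusted p = 0.00906) and with DESeq2 (adjusted p = 0.0133). *Aox1* stood at -0.76 ± 0.14 at Day 3 (edgeR adjusted p = 0.0116) and -0.50 ± 0.14 at Day 7 (edgeR adjusted p = 0.0342), both lost without *Sox17*-*Erg* replicate 1 or control replicate 2 of the same day, and at Day 7 also without control replicate 1. The other CYP26 enzymes were too low to test. *Cyp26a1* had 0 to 2 counts in each control library and 23 and 9 counts in *Sox17*-*Erg* at 4 weeks, and *Cyp26c1* had 0 to 2 counts in each of the 12 libraries.

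Receptor partners and cofactors, 14 tested of 15, held 4 genes called higher and 0 lower on Day 3. On Day 7 the counts were 2 and 2, and after 4 weeks 1 and 3. *Rxra*, the main partner of the receptors, was at 203.3 and 176.0 CPM in control and 107.0 and 107.5 CPM in *Sox17*-*Erg* at 4 weeks, a log2 fold change of -0.82 ± 0.21 (edgeR adjusted p = 0.0206), and -0.73 ± 0.21 at Day 7 (edgeR adjusted p = 0.0406). The 4-week call was lost without control replicate 1 or either *Sox17*-*Erg* library of that time, up to edgeR adjusted p = 0.113, and the Day 7 call in 7 of the 12 fits with a library left out, up to 0.281. *Rxrb* did not pass at any time, with log2 fold changes of -0.16, 0.17 and -0.11, and *Rxrg* had 0 to 5 counts in each library. *Nr2f1*, an orphan receptor induced by retinoic acid, was higher at each time, by 1.66 ± 0.23, 1.98 ± 0.23 and 0.81 ± 0.22 (edgeR adjusted p = 0.0036, 0.000686 and 0.0277), of which the last was lost without control replicate 2 or either *Sox17*-*Erg* library of 4 weeks, up to edgeR adjusted p = 0.143. *Fabp5*, a carrier that also takes retinoic acid, was higher by 1.45 ± 0.21 at Day 3 (edgeR adjusted p = 0.00434) and 1.02 ± 0.21 at Day 7 (edgeR adjusted p = 0.01), and at 4 weeks stood at -0.023. Its Day 7 call was lost without control replicate 2 or *Sox17*-*Erg* replicate 1 of that day, up to edgeR adjusted p = 0.071. *Nrip1*, a corepressor induced by retinoic acid, was higher by 0.78 ± 0.14 at Day 3 (edgeR adjusted p = 0.0113) and lower by -0.56 ± 0.14 at Day 7 (edgeR adjusted p = 0.0254) and -0.87 ± 0.14 at 4 weeks (edgeR adjusted p = 0.00233). Its *Sox17*-*Erg* effect differed between 4 weeks and Day 3 by -1.66 ± 0.20 (edgeR adjusted p = 0.00442), the same order of signs as that of *Rarb*. The 4-week call of *Nrip1* held with each library left out, and those of Day 3 and Day 7 were each lost without any 1 of 3 libraries of the same day, *Sox17*-*Erg* replicate 1 among them, up to edgeR adjusted p = 0.128 and 0.126. *Ncoa3*, a coactivator, was called lower at 4 weeks and *Nr2f2*, an orphan receptor related to *Nr2f1*, higher at Day 3. With the replicate block over all libraries *Ncoa3* was also called lower at Day 3 (-0.59, edgeR adjusted p = 0.0465) and Day 7 (-0.60, edgeR adjusted p = 0.0335), where it did not pass without the block (edgeR adjusted p = 0.0867 and 0.0662). The 4-week call of *Ncoa3* was lost without any 1 of 6 libraries and that of *Nr2f2* without any 1 of the 4 libraries of Day 3.

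Among 29 genes long known to respond to retinoic acid, 21 were tested, of which 1 was higher and 0 lower on Day 3. On Day 7 the counts were 1 and 3, and after 4 weeks 3 and 5. Some of these, such as *Dhrs3* and *Nrip1*, were described above. *Rarres2*, the chemerin gene, was at 134.6 and 91.0 CPM in control and 30.9 and 38.1 CPM in *Sox17*-*Erg* at 4 weeks, a log2 fold change of -1.71 ± 0.34 (edgeR adjusted p = 0.0072). *Rarres1* went the other way, at 2.204 and 0.528 CPM in control and 10.9 and 11.3 CPM in *Sox17*-*Erg* at 4 weeks, a log2 fold change of 2.97 ± 0.52 (edgeR adjusted p = 0.00365). The call of *Rarres1* held with each library left out, though its log2 fold change was 4.38 without control replicate 1 and 2.34 without control replicate 2, and that of *Rarres2* was lost without control or *Sox17*-*Erg* replicate 1 of 4 weeks, up to edgeR adjusted p = 0.0747. *Hoxa3* and *Hoxb3*, patterning genes, were higher at 4 weeks by 1.72 ± 0.43 and 1.58 ± 0.31 (edgeR adjusted p = 0.0182 and 0.0066). *Tgm2*, a transglutaminase, and *Zfp703* were lower at 4 weeks by -0.75 ± 0.15 and -0.54 ± 0.13 (edgeR adjusted p = 0.00818 and 0.014). The calls of *Hoxa3*, *Tgm2* and *Zfp703* were lost without *Sox17*-*Erg* replicate 1 of 4 weeks, up to edgeR adjusted p = 0.115, 0.0622 and 0.11, those of *Hoxa3* and *Zfp703* also without control replicate 1, and that of *Hoxa3* without control replicate 2. With the replicate block over all libraries *Tgm2* was also called lower at Day 3 (-0.51, edgeR adjusted p = 0.0474). The responsive genes thus went in both directions in the same libraries.

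**Figure D4:**
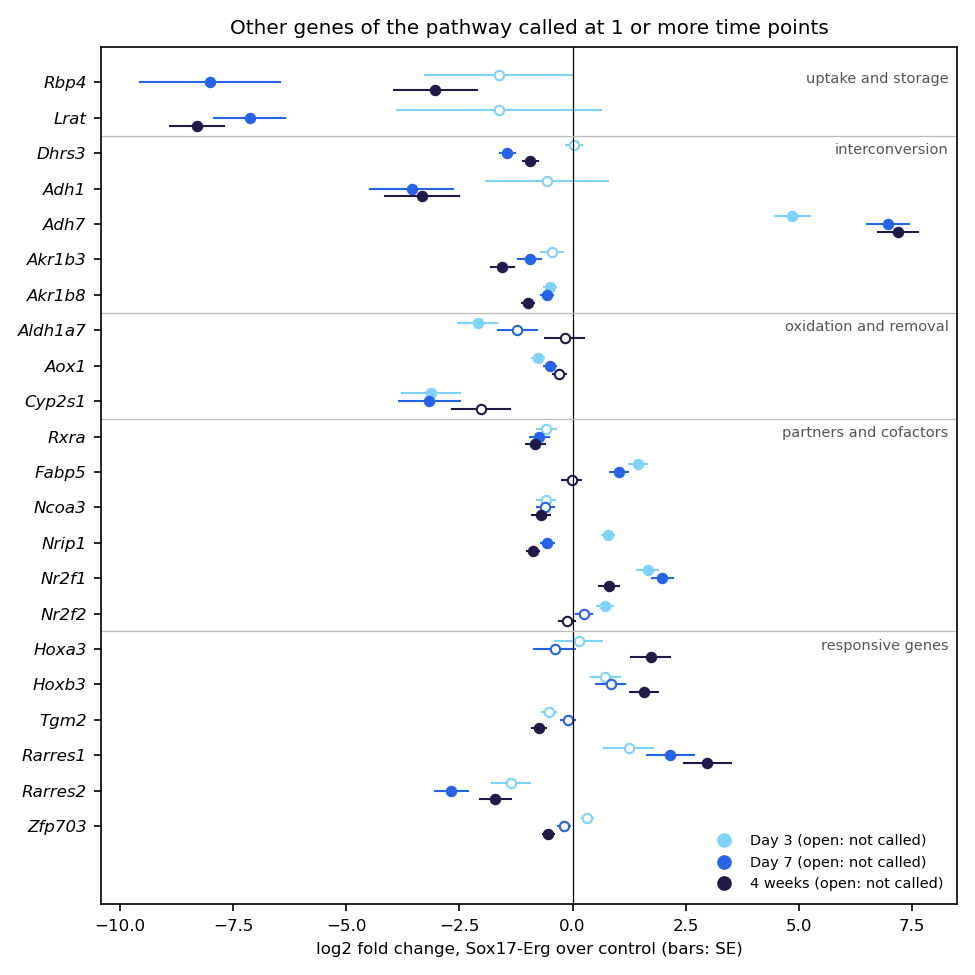
Log2 fold change of *Sox17*-*Erg* over control, with SE, for the other pathway genes called at 1 or more time points, grouped by role; filled points passed an adjusted p under 0.05. *Adh7* lay at 4.86 to 7.19, *Lrat* at -8.30 and *Rbp4* at -3.03 at 4 weeks, and *Nrip1* lay above 0 at Day 3 and below 0 at 4 weeks. The *Rbp4* point of Day 7 is fitted against 0 counts and is no measure of size.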

How the data were processed

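RNA-seq had been run on 12 libraries of mouse neonatal cardiac fibroblasts, 2 per arm and time point, with a stranded mRNA kit. The authors trimmed the reads with BBDuk and deposited Salmon estimated counts per Ensembl gene, with no version given in the sources used here. The submitters' processing notes name mm10 and bcl2fastq 2.20.0. The values were read as estimated counts and rounded to whole numbers. No column of per-sample values was left out.

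Symbols and positions came from GENCODE M21 (GRCm38), which named 35493 of the 35727 genes. Counts were tested in R 4.3.3 with edgeR 4.0.16 (TMM, genes kept by filterByExpr at count 10 and total 15, robust quasi-likelihood fit, 1 mean per group, 6 residual degrees of freedom), with p-values adjusted by Benjamini-Hochberg over all 15506 tested genes. CPM used TMM-scaled library sizes, and CPM per kb the union exon length. Correlations and permutation tests used log2 CPM with a prior count of 2. Library totals limit precision for genes of few counts, and counting intervals cover counting error only. Replicates of a group correlated at 0.969 to 0.979 across genes and differed by more than sampling noise, at chi-square values of 27.4 to 70.4 for each degree of freedom. The script was tested on simulated counts for the Day 7 comparison between arms. Changes over time, differences in effect and replicate pairing were not part of that test.

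Replicate numbers come from the labels. Same-numbered libraries of the arms deviated together, with correlations of 0.187, 0.301 and 0.171 at Day 3, Day 7 and 4 weeks, and were taken as pairs in an alternative with a replicate block. The other alternatives were DESeq2 1.42.0, its size factors, no count filter or one of 50, each time point on its own, other thresholds, each library left out and, chosen after seeing the data, a fit without robust estimation.

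All 9 members are named, and of the other pathway lists the genes called at 1 or more time points, plus *Aldh1a7*, *Cyp26a1*, *Cyp26c1*, *Rxra*, *Rxrb* and *Rxrg*. Some listed genes are not reported here and enter no list count. Up to 3 genes most like each called member are named by Pearson's r. Other genes, such as *Wt1*, *Cdh5* and *Top2b*, were named after their values were seen. The members and lists were chosen with earlier results of these data known.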

Additional observations from a re-analysis of the deposited data

Results flagged for a closer look

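The effect of *Sox17*-*Erg* differed between 4 weeks and Day 3 for 3 of the genes, by a test of the difference itself with edgeR's quasi-likelihood fit. For *Aldh1a3* the log2 fold change was 2.74 larger at 4 weeks (edgeR adjusted p = 0.0419). For *Rara* it was 0.79 larger (edgeR adjusted p = 0.0419), from lower than control at Day 3 to no call at 4 weeks. For *Rarb* it was -2.78 (edgeR adjusted p = 0.0111), from above control without a call at Day 3 to below control at 4 weeks. None of the 3 held with each library left out in turn.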

How the results depend on the processing

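Of the calls of members, 1 of 4 at Day 3, 4 of 6 at Day 7 and 4 of 6 at 4 weeks held with each library left out, a step that leaves 1 library in a group, assumed to vary like the others. Leaving out 1 library gave 1 to 2 members higher and 0 to 3 lower at Day 3, 2 to 3 and 2 to 3 at Day 7, 2 to 3 and 2 to 3 at 4 weeks, 0 to 2 and 0 to 2 over time in control, 2 to 5 and 1 to 2 over time in *Sox17*-*Erg*, and 0 to 2 and 0 to 1 for the difference in effect. For other pathway genes it gave 3 to 6 higher and 0 to 5 lower at Day 3, 2 to 4 and 3 to 12 at Day 7, and 3 to 6 and 5 to 13 at 4 weeks. The 2 members higher at Day 3 became 1 with DESeq2 or its size factors, with no filter or one of 50, with either replicate block and at an adjusted p under 0.01. The 2 lower became 4 with each time point on its own or a replicate block within time points, 0 at 0.01 and 1 at a log2 fold change of at least 1. At 0.01 the counts were 1 higher and 0 lower over time in control, 2 higher in *Sox17*-*Erg*, and 0 higher and 0 lower for the difference in effect. At a log2 fold change of at least 1, 1 member was lower over time in control and 1 higher for the difference in effect, as with no filter. Other pathway genes higher at Day 3 were 3 at 0.01 and 3 at a log2 fold change of at least 1, and those lower 7 with DESeq2, on the day's own libraries or with the replicate block, 9 with a block within time points, 0 at 0.01 and 2 at a log2 fold change of at least 1. At Day 7 those lower were 5 on the day's own libraries, 17 with a block within time points, 3 at 0.01 and 6 at a log2 fold change of at least 1, and those higher 2 at 0.01. At 4 weeks those higher were 3 at 0.01, and those lower 7 at 0.01 and 5 at a log2 fold change of at least 1. The replicate block over all libraries changed no call of a member between arms other than those given for *Aldh1a2*, *Crabp1* and *Cyp26b1*. Over all genes, DESeq2 called 1256 lower at Day 3 against 792, and 671 higher and 352 lower for the difference in effect against 346 and 155. Without a filter 234 were lower for that difference, each time point on its own called 567 higher and 409 lower at Day 7 against 1481 and 1237, and a replicate block within time points 1998 and 1649 at Day 3 against 1119 and 792 and 2091 lower at Day 7 against 1237. The cause was not tested. The total of calls over all tested genes at a time point also fell when a library of that time was left out. The share of all genes' calls that held in every such fit was not counted. The losses of member and pathway calls are therefore not set against it.

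Changes of sign touched values that were not called. *Fabp5* at 4 weeks was 0.0018 on that time's own libraries and -0.46 to 0.29 with a library left out. The other ranges with a library left out were -0.019 to 0.20 for *Rara*, -0.67 to 0.66 for *Aldh1a7*, -0.30 to 0.080 for *Nr2f2* and -0.26 to 0.080 for *Rxrb* at 4 weeks, -0.28 to 0.044 for *Rarg* over time in control, -5.52 to 0.28 for *Adh1*, -0.32 to 0.29 for *Dhrs3* and -0.39 to 0.52 for *Hoxa3* at Day 3, and -0.31 to 0.12 for *Tgm2* at Day 7. Depth limits *Crabp2*, *Crabp1* in control, *Aldh1a3* in control and *Rarb*.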
